A study of Homo sapiens with 4 samples.

Results

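Broad domains of H3K14ac, acetylation of lysine 14 on histone H3, were examined in MKN45 gastric cancer cells with knockdown of NIT2, which encodes an omega-amidase. A broad domain was a region of 2500 bp or more in the peak list of the shNIT2 library. The domains were chosen by width in that list, so their width and strength are given as a description. There were 792 such domains among the 28187 regions of the shNIT2 list and the 68063 regions of both lists together. The samples were 4 libraries of MKN45, an established human cell line, each from formaldehyde-fixed and sonicated chromatin. The NIT2 knockdown pair was an H3K14ac library and an input library from shNIT2 cells, and the control pair was an H3K14ac library and an input library from shNT cells, which carried a control hairpin. The labels name no drug treatment, no hairpin sequence and no clone for either condition. With 1 H3K14ac library per condition there is no replicate check, no test was made between conditions, and all intervals below are 95% Clopper-Pearson intervals that cover counting error only.

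H3K14ac is laid down by acetyltransferases such as GCN5, PCAF, p300 and the HBO1 and MOZ complexes, removed by deacetylases, and bound by bromodomain proteins. It is known as a mark of active promoters and enhancers. Wide or closely grouped acetylated stretches are often found at genes with high transcription and at genes that define a cell lineage, which in stomach and gut epithelium include GATA and ETS-family factors.

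The labelled cell type was checked against its markers. All 8 epithelial markers examined had an shNIT2 region at a gene end, meaning within 1 kb of either end of the gene. Over all protein-coding genes, 36.8% had a region of any width there. A broad domain lay at a gene end in 3 of the 8, KRT8, KRT18 and MUC1, against 1.28% of all protein-coding genes. KRT8 and KRT18 shared theirs. Of 10 markers of other cell types, 5 had a region at a gene end: VIM, ZEB1, CD3E, CD68 and NEFL. The widest at each was 364 to 510 bp wide, and 0 of the 10 had a broad domain. COL1A1, PTPRC, SYP, ALB and MYH7 had no region there.

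MicroRNA genes of epithelial cells were among the sequences that the domains covered. Of 1562 RefSeq miRNA hairpins, 11 lay in or touched a broad domain (0.704%), in 9 domains, and 10 of them lay wholly inside. A region of any width touched 65 hairpins (4.16%). The mature sequences of 5 are shown because they are the best known products of 3 of these domains, with the seed, bases 2 to 8, in capitals.
hsa-miR-200c-3p: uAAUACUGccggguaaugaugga
hsa-miR-141-3p: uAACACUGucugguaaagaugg
hsa-miR-192-5p: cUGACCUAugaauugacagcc
hsa-miR-194-5p: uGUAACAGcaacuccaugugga
hsa-miR-21-5p: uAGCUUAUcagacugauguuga
These are RefSeq sequences of GRCh38.p14, and the 17 mature entries in domains had 17 distinct seeds. The hairpins of miR-200c and miR-141, which repress the ZEB factors and are high in epithelium, shared a domain of 3723 bp on chromosome 12 (start 6960946, end 6964668). It had a fold enrichment of 16.4 and 88 fragments at its summit, and no shNT region overlapped it. The hairpins of miR-192 and miR-194-2, which are abundant in gut and liver epithelium, shared a domain of 3455 bp on chromosome 11 with 43 fragments, which no shNT region overlapped either. The hairpin of miR-21, a miRNA raised in many tumours, lay in a domain of 4726 bp inside VMP1 on chromosome 17 with 204 fragments, and 2 shNT regions overlapped it. Other domains with hairpins lay at GDF15, BCL9L, RXRA, BCAS1 and GULP1.

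Gene starts under the widest domains ranged from CpG-poor to CpG-dense. The 250 bases upstream of 3 starts are shown to give that range, with every GC box (GGGCGG or its reverse complement CCGCCC), a site that SP and KLF factors bind, in capitals.
TSPAN8: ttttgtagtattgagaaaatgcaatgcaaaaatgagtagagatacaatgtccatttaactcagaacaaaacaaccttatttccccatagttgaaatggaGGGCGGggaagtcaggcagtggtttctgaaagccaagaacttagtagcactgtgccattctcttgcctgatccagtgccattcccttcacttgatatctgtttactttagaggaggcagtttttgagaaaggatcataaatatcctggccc
ZMYND8: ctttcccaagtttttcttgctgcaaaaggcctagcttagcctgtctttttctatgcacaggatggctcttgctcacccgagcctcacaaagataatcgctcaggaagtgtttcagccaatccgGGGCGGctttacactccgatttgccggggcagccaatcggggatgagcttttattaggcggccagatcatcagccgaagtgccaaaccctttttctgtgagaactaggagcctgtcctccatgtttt
ACTG1: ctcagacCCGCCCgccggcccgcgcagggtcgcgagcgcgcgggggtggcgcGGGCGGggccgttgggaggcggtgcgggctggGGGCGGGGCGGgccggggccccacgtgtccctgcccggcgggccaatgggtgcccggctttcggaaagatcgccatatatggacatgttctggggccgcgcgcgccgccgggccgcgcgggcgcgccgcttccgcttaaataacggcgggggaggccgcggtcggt
The windows are chr12:71158000-71158249 for TSPAN8, chr20:47356700-47356949 for ZMYND8 and chr17:81512800-81513049 for ACTG1, each on the minus strand of GRCh38.p14 in RefSeq. They hold 1, 9 and 43 CpG dinucleotides and 1, 1 and 4 GC boxes in that order. TSPAN8, a tetraspanin of gut and tumour epithelium, lay under the widest domain of the list. ZMYND8, a bromodomain reader of acetylated histones, lay under the 8th widest, and ACTG1, cytoplasmic gamma-actin, under the domain of second highest fold.

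Over all 188 RefSeq starts inside broad domains, the median was 20 CpG per 250 bases, against 24 at 1519 starts inside narrower regions and 16 over all 22198 starts. A GC box occurred in 66.0% of the starts in domains (58.7 to 72.7%), 69.1% of those in narrower regions (66.7 to 71.4%) and 53.7% of all. The ETS motif CCGGAA occurred in 14.9% (10.1 to 20.8%), against 24.6% in narrower regions (22.4 to 26.8%) and 17.9% of all. TGANTCA, the AP-1 motif, occurred in 9.04% (5.36 to 14.1%), 4.87% (3.84 to 6.08%) and 5.36% of the same 3 sets, and TATAAA in 9.57% (5.77 to 14.7%), 4.94% (3.9 to 6.15%) and 9.01%. TGACGT was found in 7.45%, 5.86% and 8.0%, and GATAAG in 2.13%, 2.37% and 4.86%. Both strands were searched, several starts of 1 gene can share most of a window, motifs could overlap, and a match is a description of letters in the window. The intervals count each of the 188 starts as separate, although they belong to 136 genes, so they are too narrow. As computed, those of domains and narrower regions did not overlap for CCGGAA and overlapped for the other 5 motifs. No difference between the sets is read from this.

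The domains had a median width of 3134 bp (quartiles 2770 and 3890 bp) and reached 11028 bp, against a median of 559 bp for the 27395 narrower regions of the list. They made up 2.81% of its regions and 12.6% of its bases, 2.78 of 22.1 Mb. Of the 792 domains, 457 were 3000 bp or wider, 169 were 4000 bp or wider, 31 were 6000 bp or wider and 7 were 8000 bp or wider. At the summit, the median fold enrichment, which is the authors' value per region, was 10.6 (1.98 to 53.7) in domains and 4.14 in narrower regions. The median pileup was 68 fragments (21 to 894) in domains and 21 in narrower regions, and the median background was 5.45 and 4.15 fragments. Width and summit pileup went together with a Spearman coefficient of 0.33 over the 792 domains and 0.64 over all regions of the list, where both measures come from the same fragments. The summit lay at a median of 48.2% of the domain width (quartiles 27 and 69.8%). In 354 domains (44.7%) it was outside the middle 50% of the width, against 33.4% of narrower regions, where even placement would give 50%.

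**Figure D1:**
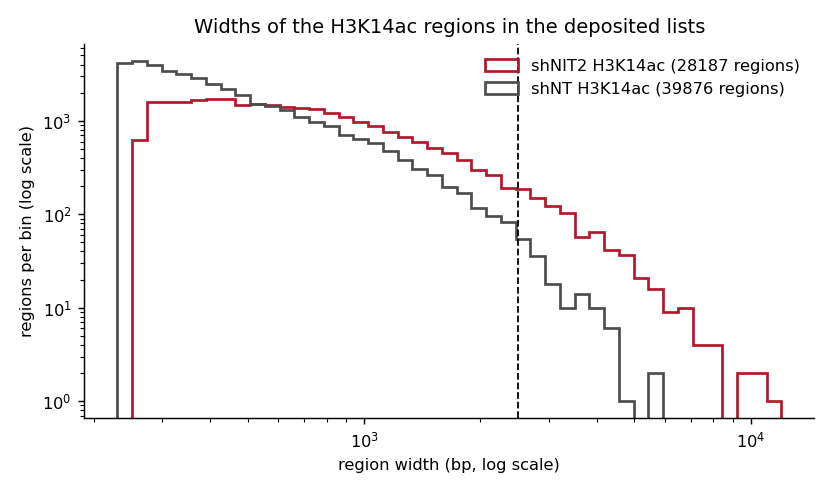
Number of regions per bin by width in bp (both axes log) for the shNIT2 list and the shNT list, with the 2500 bp minimum marked. The shNIT2 list had 792 regions at or over the minimum and the shNT list 143.

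Genes of epithelium, iron storage, growth signalling and vesicle traffic lay under the widest domains. The domain over TSPAN8 was 11028 bp wide with 206 fragments at the summit. VPS37B, a subunit of the ESCRT-I sorting complex, held one of 10221 bp with 74 fragments. A domain of 10148 bp contained all of FTH1, the ferritin heavy chain, and reached BEST1, with 151 fragments. Ferritin stores iron in a form that limits oxidative damage. Next came a domain of 9986 bp over the non-coding gene HCG20, 16981 bp from the immediate early gene IER3, with 203 fragments, and one of 9945 bp over the start of UGT1A6, a glucuronosyltransferase, with 105 fragments. LGR4, a receptor for R-spondins, held a domain of 8118 bp with 179 fragments.

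Others of the 20 widest, 6607 to 7847 bp wide, lay in ZMYND8, ELF3, TMBIM1 and PNKD, CCDC12, MET and DLGAP1, or nearest to PGPEP1, IER3, VMP1, PAQR8, ASPH and CEACAM6. ELF3 is an ETS factor of epithelium, MET the receptor of hepatocyte growth factor, and CEACAM6 a surface glycoprotein of gut epithelium. Each of the 20 widest domains was touched by at least 1 shNT region, against 11.7% of all regions of the shNIT2 list. The summit pileup of these domains ranged from 51 to 894 fragments.

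The domains with the highest fold enrichment were only in part the widest. The highest, 53.7-fold with 345 fragments over a background of 5.45, was 3307 bp wide and 2999 bp from ALDH3A1, an aldehyde dehydrogenase of oxidative defence. ACTG1 followed with 53.2-fold and 237 fragments. A domain 927 bp from the calcium-binding gene S100A2 had 45.2-fold. One inside SETD1B, an H3K4 methyltransferase, had 43.8-fold and also overlapped the long non-coding gene LINC01089. A domain 18070 bp from CALML3 had 42.0-fold, and one inside MDM2, the ubiquitin ligase of p53, 41.6-fold with 450 fragments. The others among the 10 highest lay 73794 bp from FTH1 (37.8-fold), 74780 bp from LOC124900275 (36.8-fold), 633 bp from PARD6B (35.4-fold) and over PTP4A1 and LGSN (35.1-fold). Of these 10, 9 were overlapped by an shNT region and the one nearest LOC124900275 was not.

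By their midpoints, the domains lay mostly inside or between genes. The midpoint was within 1 kb of a gene end in 93 of 792 domains, 11.7% (9.58 to 14.2%), against 25.5% of narrower regions (24.99 to 26.0%) and 25.1% of all regions. It was further inside a protein-coding gene in 380 domains, 48.0% (44.5 to 51.5%), against 41.5% of narrower regions (40.9 to 42.1%). It lay between genes in 319 domains, 40.3% (36.8 to 43.8%), against 33.0% (32.4 to 33.5%). A midpoint moves away from a start as a region widens on 1 side, and with any overlap as the measure, 28.9% of domains (25.8 to 32.2%) and 28.3% of narrower regions (27.8 to 28.8%) touched a gene-end window. The midpoint share at gene ends was 27.5% at widths of 500 to under 1000 bp, 26.7% at 1000 to under 1500 bp, 19.1% at 1500 to under 2500 bp, 12.8% at 2500 to under 3500 bp and 9.67% from 3500 bp. Among regions with a −log10 q of 50 or more, 13.2% of domains (9.81 to 17.2%) and 46.5% of regions under 1000 bp (37.1 to 56.1%) had their midpoint at a gene end.

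**Figure D2:**
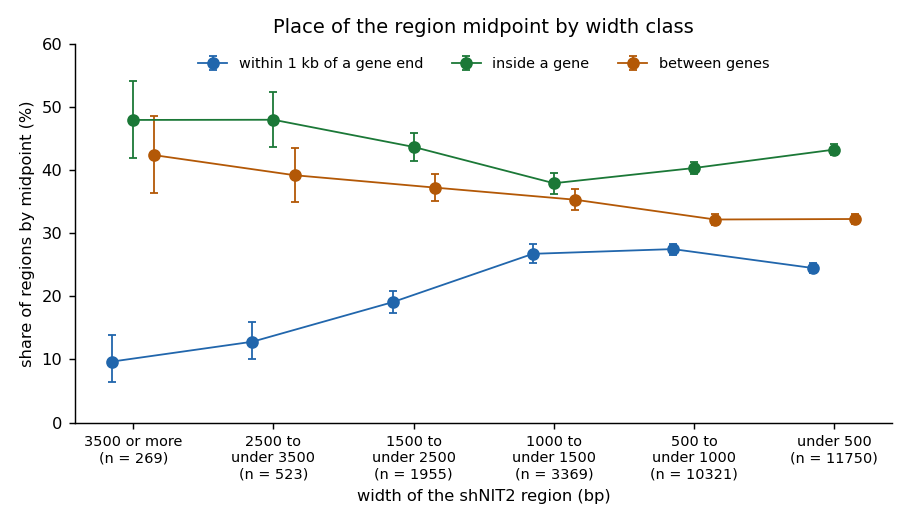
Share of shNIT2 regions (%) with the midpoint within 1 kb of a gene end, inside a protein-coding gene or between genes, by width class in bp, with 95% Clopper-Pearson intervals for counting error. The gene-end share was 9.67% in the widest class and 24.5% in the narrowest.

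The RefSeq start table used here gives starts for 15842 of the 20033 protein-coding genes and for none on chromosome 8, so 762 domains and 26394 narrower regions elsewhere were compared, and the counts of regions over a start are lower limits. FTH1, which lay wholly inside its domain, is not among the 15842. A start of the table lay under 131 domains, 17.2% (14.6 to 20.1%), against 4.68% of narrower regions (4.42 to 4.94%). Per Mb of sequence the order was the other way: 69.9 starts in domains and 81.0 in narrower regions. Of all 762 domains, 7.61% covered no start of the table but lay 1 to 1000 bp downstream of one, and 1.97% lay as near upstream. The shares were 16.2% and 6.03% of all 26394 narrower regions.

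The 131 domains covered starts of 136 genes, which made 140 pairs of a gene and a domain. Distances were taken from the most upstream start of the gene inside the domain. Where a gene had several starts there, this choice lengthens the downstream reach and places the summit further downstream. So measured, the domains reached further downstream than upstream in 95 of 140 (67.9%), with medians of 1994 bp downstream and 1326 bp upstream. The part of that choice in the difference was not tested. The summit lay within 150 bp of the start in 6 of 140 pairs, 4.29% (1.59 to 9.09%). No comparison with narrower regions was drawn from this distance, since their width limits how far a summit can be from a start that they cover. The summit was downstream of the start in 81 of the domain pairs and upstream in 59, with a median position of 258 bp downstream. The domain over TSPAN8 was an extreme, with its summit 4662 bp upstream of the start, and that over TGIF1, a homeobox repressor, had it 2753 bp downstream. At UGT1A6 the domain reached 8800 bp downstream of the start and 1144 bp upstream. At TMBIM1 it reached 1661 bp downstream and 5313 bp upstream.

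**Figure D3:**
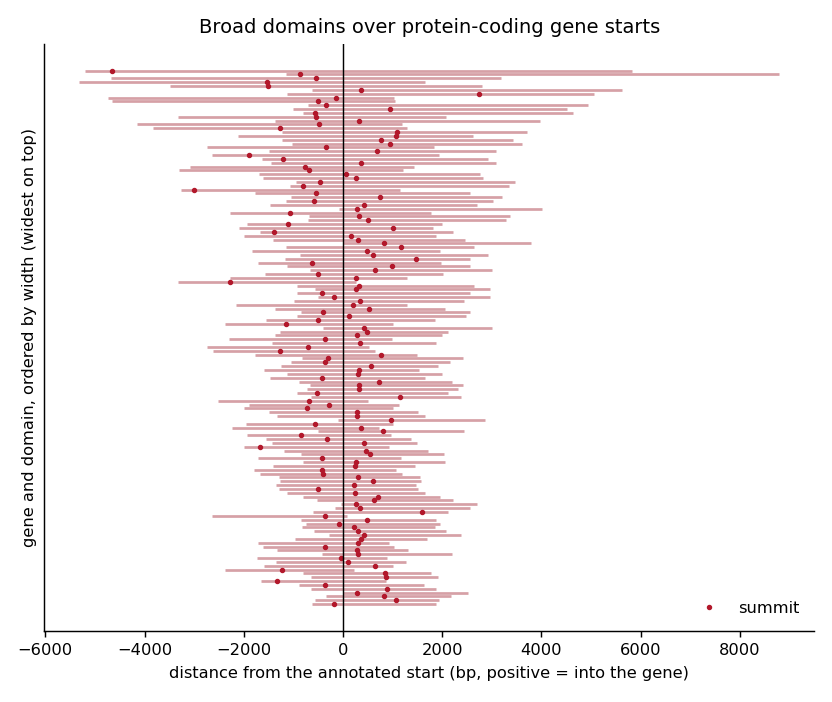
Reach of the domains over gene starts in bp upstream and downstream of the most upstream start of the gene inside the domain. The summit of each is marked and the widest domain is on top. The summits lay from 4662 bp upstream to 2753 bp downstream.

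Within genes, the domains were placed much like the narrower regions. Their median position along the host gene was 39.4% of its length, against 38.4% for narrower regions. The median host length was 101403 bp for domains and 126251 bp for narrower regions. Between genes, the median distance to the nearest protein-coding gene was 29605 bp (quartiles 8204 and 74328 bp). A long non-coding RNA gene was overlapped by 118 of the 319 domains (37.0%) and by 29.5% of narrower regions between genes. A wider region also offers more bases that can touch such a gene. NEAT1, the scaffold RNA of paraspeckles, was overlapped by a domain of 6584 bp with 28.3-fold enrichment, and MALAT1, a nuclear RNA of speckles, by one of 4368 bp with 29.0-fold. The domain farthest from a protein-coding gene lay 995173 bp from PRKX on chromosome X, with 25.7-fold enrichment and 147 fragments, and 2 shNT regions overlapped it.

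Several genes carried more than 1 domain. Over the gene with 1 kb on each side, 485 protein-coding genes were touched by a domain and 69 of them by 2 or more. Of these 69, LGR4 had the most bases, with 3 domains and 20154 bp, of which 2 domains were overlapped by an shNT region. The LGR4 domains had backgrounds of 24.3, 23.6 and 18.0 fragments, against a median of 5.45 over all domains. DLGAP1, which encodes a scaffold protein of the synapse, had 5 domains with 20018 bp, of which 4 were overlapped by an shNT region. Domains among these also lay over the long non-coding genes DLGAP1-AS1, DLGAP1-AS2 and DLGAP1-AS6. VMP1, a membrane protein of autophagy whose gene holds MIR21, had 6 domains with 19787 bp, 10.8- to 18.1-fold enriched, and each was overlapped. MET followed with 3 domains and 15898 bp, at backgrounds of 72.8, 59.3 and 49.9 fragments. The plectin gene PLEC had 3 domains with 14025 bp. The same 2 domains with 13875 bp were counted at UGT1A6, UGT1A7, UGT1A8, UGT1A9 and UGT1A10, glucuronosyltransferase genes that overlap each other, and 1 of the 2 was overlapped. Among the list genes, KRT8, the keratin of simple epithelium, had 4 domains with 13007 bp, all overlapped, and ABCC3, an organic anion exporter, 4 with 11815 bp, of which 3 were overlapped.

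Some domains lay close to each other. When domains within 12.5 kb of each other were grouped, 187 domains fell into 85 groups and 605 stood alone. The largest group, at VMP1 on chromosome 17, held 6 domains with 26684 bp in a span of 32914 bp. Groups of 4 lay at DLGAP1 with 17226 bp, at PGPEP1 and GDF15 with 16654 bp, and at CYP1B1 with 14057 bp. GDF15 is a stress-induced cytokine and CYP1B1 a cytochrome that aryl hydrocarbon signalling induces. A group of 3 beside IER3 held 21799 bp, and a group of 3 at HOXC11 and HOXC10 held 11068 bp. Genes wholly inside a domain were 4: FTH1, S100A4, PCBP1 and LOC124901225.

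The domains were counted at the gene ends of 27 gene lists. A domain touched a gene end of 256 of 20033 protein-coding genes (1.28%), and a region of any width did so at 7369 (36.8%). Over the lists together, 50 of the 610 genes found had a domain at a gene end (8.20%). The lists were chosen with earlier results of these data known, so no enrichment is read from this share. The lists hold many genes that are active in epithelium, so the plot of shares per list also shows the share for any width. A region of any width lay at a gene end in 19 of 20 integrin, laminin and netrin genes and 18 of 20 NRF2 genes. It did so in 21 of 24 receptors and drivers, 20 of 24 AP-1 and immediate early genes and 19 of 22 p53 genes. Over the lists with 0 domains at a gene end, the any-width share ran from 6.25% of neuron markers to 80.8% of adhesion and junction genes.

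Lineage and epithelial genes are given first. Among 24 gut lineage transcription factors, 6 had a domain at a gene end and 18 a region of any width. Among the 6 were ELF3 (7054 bp), GATA6 (4127 bp), EHF (2965 bp) and TCF7L2 (2916 bp). Among 7 keratins, KRT8 and KRT18 shared 1 domain of 3015 bp. Among 22 mucin, CEACAM and secreted genes, 3 had one: CEACAM5 (5431 bp), the disulfide isomerase AGR2 (3348 bp) and MUC1 (2922 bp). Among 26 adhesion and junction genes 0 had a domain at a gene end and 21 had a region of any width. CDH1, which encodes E-cadherin, and CGN, which encodes cingulin, held domains further inside the gene, of 2656 and 3401 bp. Of 20 integrin, laminin and netrin genes, 5 had one: ITGB8 (4411 bp), NTN4 (4255 bp), ITGA2 (4171 bp), LAMB1 (3381 bp) and ITGB4 (2501 bp). Of 25 actin and focal adhesion genes, 3 had one: ACTG1 (6286 bp), PFN1 (3585 bp) and ACTB (3378 bp). The ACTB domain had 216 fragments and 34.6-fold enrichment, and ACTB and ACTG1 encode the 2 cytoplasmic actins.

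Signalling and stress genes followed. Of 24 AP-1 and immediate early genes, 6 had a domain at a gene end: IER3 (7566 bp), IER2 (3130 bp), KLF6 (2873 bp), DUSP4 (2604 bp), ZFP36L1 (2536 bp) and FOSL2 (2508 bp). Of 24 receptors and drivers of gastric cancer, 5 had one: the ephrin receptor EPHA2 (5002 bp), FGFR1 (3174 bp), VEGFA (3020 bp), MET (2894 bp at its end) and MST1R (2881 bp). Of 22 p53 target and apoptosis genes, 5 had one: BCL2L1 (5635 bp), MDM2 (4081 bp), GADD45A (3302 bp), the cell cycle inhibitor CDKN1A (3077 bp) and ZMAT3 (2598 bp). The MDM2 domain had 450 fragments and 3 shNT regions, whereas no shNT region overlapped that at CDKN1A, which had 88 fragments. Of 20 NRF2 and oxidative defence genes, 4 had one: FTH1 (10148 bp), NFE2L2, which encodes NRF2 itself (4541 bp), ALDH3A1 (3962 bp) and GSTP1 (2913 bp). BMP4 was the single one of 20 TGF-beta and BMP genes (4457 bp) and S100A4 of 20 mesenchymal genes (4432 bp). TGIF1 of the TGF-beta and BMP list had a domain of 6182 bp over an annotated start, but not within 1 kb of either end of the gene. So did ITGB5 (3675 bp) of the integrin list and TPM4 (3474 bp) of the actin list.

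Metabolic, housekeeping and chromatin genes are given last. Of 51 OXPHOS subunit genes, 0 had a domain at a gene end and 35 had a region of any width there. Of 22 genes of NIT2 and glutamine metabolism, 2 had a domain: the glutamine transporter SLC38A1 (3297 bp) and the transaminase GPT2 (2742 bp). Of 23 fluorouracil genes ABCC3 alone had one at a gene end (3176 bp), and CDA, cytidine deaminase, and ABCC4 held domains inside the gene. ENO1 was the single one of 21 glycolysis genes (2993 bp). Of 47 ribosomal protein genes, 3 had a domain, among them RPLP0 (2769 bp) and RPL4 (2728 bp), and 46 had a region of any width. The domain at RPLP0 covered the annotated start of GCN1, with its summit 238 bp downstream of that start. Of 22 acetyltransferase and reader genes, 2 had one: ZMYND8 (7847 bp) and BRD2 (2954 bp). The count was 0 in the lists of Hippo, Wnt and Notch, NF-kB, nuclear receptor, H3K4 methyltransferase, histone deacetylase, immune cell, neuron, and muscle and liver genes. Genes of these lists with a domain that was not within 1 kb of either end of the gene were LRP5, RXRA, SETD1B and HDAC9, and at LRP5, RXRA and HDAC9 that domain covered an annotated start within the gene.

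**Figure D4:**
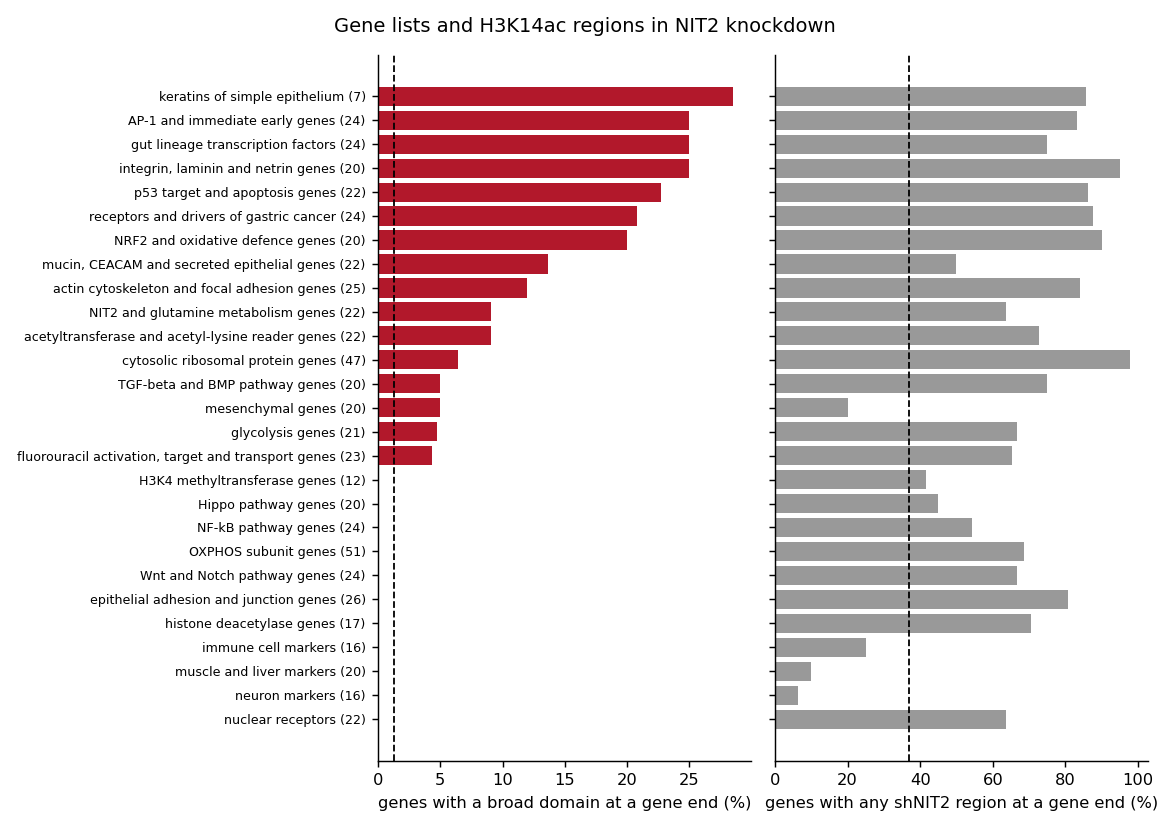
Share of genes in each of 27 lists (%) with a broad domain at a gene end (left bars) and with an shNIT2 region of any width there (right bars), with the shares over all protein-coding genes marked. The shares over all genes were 1.28% for a domain and 36.8% for any region.

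Set against the control list, 449 of 792 domains were overlapped by an shNT region by at least 1 bp, 56.7% (53.2 to 60.2%). The share was 10.4% for narrower regions and 11.7% for all regions of the shNIT2 list. The lists also differ in their background. Its lowest value was 2.48 fragments in the shNIT2 list and 0.278 in the shNT list, a ratio of 8.93. The total depth of each library is unknown, and the part of that difference in the overlap was not tested. The median pileup was 6 fragments in the shNT list. The overlap was by small pieces: shNT regions covered 11.8% of the bases of all domains and a median of 17.1% of a domain that they touched (quartiles 10.7 and 25.7%). Of the domains, 13 were at least 50% covered, and 232 had their summit inside an shNT region, 29.3% (26.1 to 32.6%). The 663 shNT regions that touched a domain had a median width of 426 bp. Overlap was by 1 shNT region in 283 domains, by 2 in 128, by 3 in 28 and by 4 in 10.

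Overlap followed strength as well as width. Among regions with a −log10 q of 50 or more, 71.9% of domains (66.9 to 76.6%) were overlapped, against 58.0% of regions of 1000 to under 2500 bp (53.7 to 62.2%) and 39.5% of regions under 1000 bp (30.4 to 49.1%). At −log10 q from 20 to under 50, the shares were 49.7% (44.2 to 55.2%), 30.3% (28.1 to 32.6%) and 22.99% (20.6 to 25.5%). At −log10 q from 10 to under 20 they were 32.7% (23.5 to 42.9%), 18.7% (16.8 to 20.7%) and 12.4% (11.3 to 13.6%). Over all regions, shNT regions covered 11.8% of the bases of domains and 5.51% of those of narrower regions. Within classes of strength the share of bases was not highest in domains. It was 16.6% in domains, 19.3% at 1000 to under 2500 bp and 20.2% under 1000 bp in the strongest class, 8.11%, 8.98% and 12.2% in the class from 20 to under 50, 5.08%, 5.14% and 6.33% from 10 to under 20, and 1.42%, 3.12% and 2.58% under 10. A wider region also offers more bases that an shNT region can touch.

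**Figure D5:**
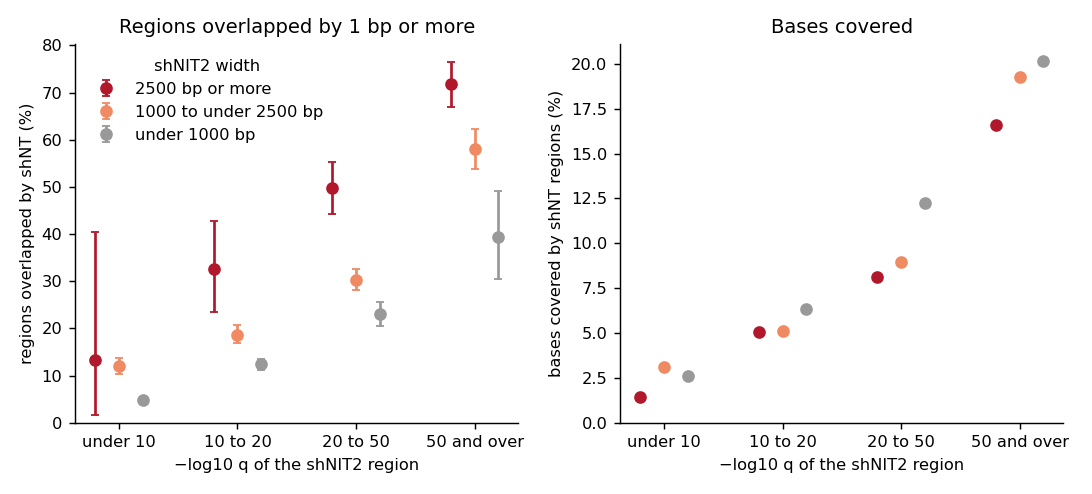
Share of shNIT2 regions (%) overlapped by an shNT region, by class of −log10 q and of width, with 95% Clopper-Pearson intervals for counting error (left), and share of their bases (%) covered by shNT regions (right). In the strongest class the share overlapped was 71.9% for domains and 39.5% for regions under 1000 bp, and the share of bases 16.6% and 20.2%.

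Domains with an shNT region were wider and stronger than those without: the medians were 3302 bp, 79 fragments and 11.9-fold in the 449 domains with overlap, and 2993 bp, 53 fragments and 9.25-fold in the 343 without. In the 449, the summit pileup was a median of 8.80 times (quartiles 6.50 and 13.0) the largest shNT pileup in the same domain, where that largest value had a median of 9 fragments and a range of 3 to 57. These are unscaled pileups of libraries of unknown depth, and the lowest backgrounds of the lists had a ratio of 8.93, so no gain of signal is read from the 8.80. By place, 52.7% of gene-end domains (42.1 to 63.1%), 58.7% of those inside genes (53.6 to 63.7%) and 55.5% of those between genes (49.8 to 61.0%) were overlapped, with intervals that overlap.

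Of the 343 domains without shNT overlap, the one of highest fold was the 36.8 near LOC124900275, with 127 fragments and an shNT region 22643 bp away. The same gene was nearest to the second, with 26.7-fold. A domain 23999 bp from ACTB followed with 26.2-fold and 121 fragments. The others of the 10 highest had 21.4- to 24.1-fold enrichment and lay in MAGI1, KIAA1549, ANK1, ITGA2 and NTN4 or nearest to NHLRC2 and DCAF8L1. The domain over the start of ITGA2, the collagen-binding integrin alpha-2, was 4171 bp wide with 110 fragments, and the nearest shNT region lay 75230 bp away. The domain at NTN4, which encodes a secreted netrin of basement membranes, was 4255 bp wide with 79 fragments, and an shNT region lay 7741 bp away. For MAGI1 an shNT region lay 465 bp outside the domain.

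The most bases covered by shNT regions were in the domain of 7758 bp nearest to PGPEP1, between it and GDF15, with 4917 bp (63.4%). The domain of 7407 bp beside VMP1 had 4110 bp covered (55.5%), and those of SEPTIN9, near TUBD1 and near CEACAM6 had 56.4%, 51.0% and 40.6% covered. The shNT list had 143 regions of 2500 bp or more, all between genes and up to 5827 bp wide. Of these, 1 overlapped a domain: a region of 2710 bp with 27 fragments, 6135 bp from GDF15, in the domain nearest to PGPEP1.

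Across chromosomes, domains made up from 1.58% of the shNIT2 regions on chromosome 16 (0.867 to 2.64%) and 1.603% on chromosome 5 (0.982 to 2.46%) to 4.44% on chromosome 12 (3.47 to 5.58%). The 11 domains with the highest background all lay on chromosome 7 between positions 115114094 and 121315406, in or near MDFIC, TES, CAV2, MET, ST7 and WNT16. Their background was 29.3 to 79.1 fragments, their pileup 98 to 894 and their fold enrichment 1.98 to 12.1. The domain next in background, in LGR4, had 24.3 fragments. MKN45 is known for amplified copies of MET, and the part of copy number in these values was not tested. An shNT region overlapped 7 of the 11, and the overlap share was 56.6% in the 781 domains elsewhere.

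At the width minimum, the domains just inside were 1 at ABCC3 of 2500 bp with 72 fragments, 1 at ITGB4 of 2501 bp with 86 and 1 at S100A2 of 2503 bp with 95. The regions just outside were 1 in GLIS3 of 2499 bp with 30 fragments, 1 in PTPRM of 2498 bp with 58 and 1 in GSAP of 2497 bp with 34.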

How the data were processed

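H3K14ac ChIP-seq was read from 2 deposited peak lists, 1 per H3K14ac library; the input libraries were not analysed here. For these lists the submitters' processing notes record hg38 as build, MACS2 2.1.1, Bowtie2 2.2.6, Trimmomatic 0.35, cutadapt 1.9.1, ChIPseeker and FastQC, with no order. Use of the inputs as control and the treatment of duplicates are not given in the sources used here. A deposited list gives, per region, a score, a fold enrichment (a ratio of pileup to background with 1 added to each), a −log10 p-value and a −log10 q-value, all the authors' own. The smallest deposited −log10 q was 1.30 in both lists. Total read depth is unknown.

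Pileup and background at each summit were solved from the fold and the −log10 p under a Poisson upper tail (tolerance 0.1% of −log10 p); 0 shNIT2 regions and 1 shNT region could not be solved. Genes, starts, promoters and miRNAs came from RefSeq tables of GRCh38.p14. Of 611 list genes, 610 were found. Shares carry Clopper-Pearson intervals. The code was tested on simulated regions. Python 3.11.15, pandas 2.3.3, numpy 2.4.6, scipy 1.17.1 and matplotlib 3.10.9 were used.

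Genes are named by rule: the 20 widest domains, the 10 of highest fold with and without shNT overlap, the 5 with most covered bases, list members with a domain at a gene end, the 10 genes with most domain bases among those with 2 or more domains, the 10 highest backgrounds and 3 regions on each side of the width minimum. Domains at miRNA and long non-coding genes, extremes at starts and the farthest domain were named after their values were seen. The members and lists were chosen with earlier results of these data known. Some genes that these rules name are not reported here.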

Additional observations from a re-analysis of the deposited data

How the results depend on the processing

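The number of domains was 1386 with a width minimum of 2000 bp, 457 with 3000 bp and 2730 when regions within 1 kb were joined. The overlapped share was 48.1%, 63.7% and 47.1% in that order, 34.1% with shNT regions of −log10 q of 5 or more, 29.3% with the summit as the measure and 1.64% with 50% of the domain covered. The share at gene ends was 28.9% by any overlap, 28.9% with a 3 kb window and 15.8% with joined regions, and the share inside genes was 34.1% with the 3 kb window. Genes with a domain at a gene end numbered 463 at 2000 bp and 159 at 3000 bp, and list genes 85 and 32. Some lists without a domain at a gene end gained one. At 2000 bp these were 4 adhesion and junction genes and 1 gene each of the OXPHOS, Wnt and Notch, nuclear receptor and histone deacetylase lists. With the 3 kb window 1 adhesion and junction gene and 1 Wnt and Notch gene had one. The other such lists stayed without one. The cause of these moves was not tested. A fold minimum of 5 left 755 domains, and leaving out the chromosome 7 block, chosen after seeing the data, left 781 with an overlapped share of 56.6%. No paired analysis was possible because each condition has 1 H3K14ac library; for the same reason no replicate could be left out.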
